A study of Caenorhabditis elegans with 8 samples.

Results

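The transcriptome of unstressed *nhr-49*(*nr2041*) worms was set against that of the wild-type strain N2, in 2 libraries from each genotype. Both groups were *Caenorhabditis elegans* fed on *E. coli* OP50 until the L4 larval stage and received no treatment, so that genotype is the single labelled difference between them. *nr2041* is described by the study as a null allele of *nhr-49* that was backcrossed to N2, and which stretch of the gene it removes is not given in the sources used here. The series holds 8 libraries, of which the other 4 came from the same genotypes after 4 hr in 7.5 mM tBOOH (tert-butyl hydroperoxide, an organic peroxide). The labels number the libraries of each group 1 and 3. The study describes the libraries of a condition as biological replicates.

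NHR-49 is a nuclear hormone receptor of worms, a ligand-regulated type of transcription factor. In the intestine and other tissues it activates genes that load fatty acids onto coenzyme A, carry them into mitochondria for beta-oxidation, and place double bonds in saturated fatty acids. It acts with the Mediator subunit MDT-15 and with partner receptors, and mutants that lack it store more fat, have a high ratio of saturated to unsaturated fatty acids and live shorter lives.

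Of 42048 gene symbols in the count table, 14334 had a level above 1 CPM (counts scaled to a common library total with TMM factors, which correct for composition) in at least 2 of the 8 libraries and were tested. The edgeR exact test called 143 of them at an adjusted p under 0.05 (Benjamini-Hochberg over all genes tested, as for every adjusted p given here), which is 0.998% of the genes. In *nhr-49* mutants 28 genes were lower (0.195% of the genes tested) and 115 were higher (0.802%). At an unadjusted p under 0.05 there were 1084 genes. The called genes changed strongly, with 24 of the 28 lower and 97 of the 115 higher genes beyond 4-fold on the fitted scale. The median log2 fold change of *nhr-49* over N2 was -3.18 for the lower and 3.82 for the higher genes, against -0.03 for all genes tested. For 2 lower and 31 higher genes 1 group had no count in either library. With these genes set at their lower bounds, computed against 3 counts per library, the medians were -3.18 and 3.37. The groups did not overlap for any called gene, and they did not overlap either for 20.7% of all genes tested in the lower and 18.3% in the higher direction. The quasi-likelihood test of edgeR, which allows for uncertainty in each gene's spread, called 4 lower and 16 higher genes.

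**Figure D1:**
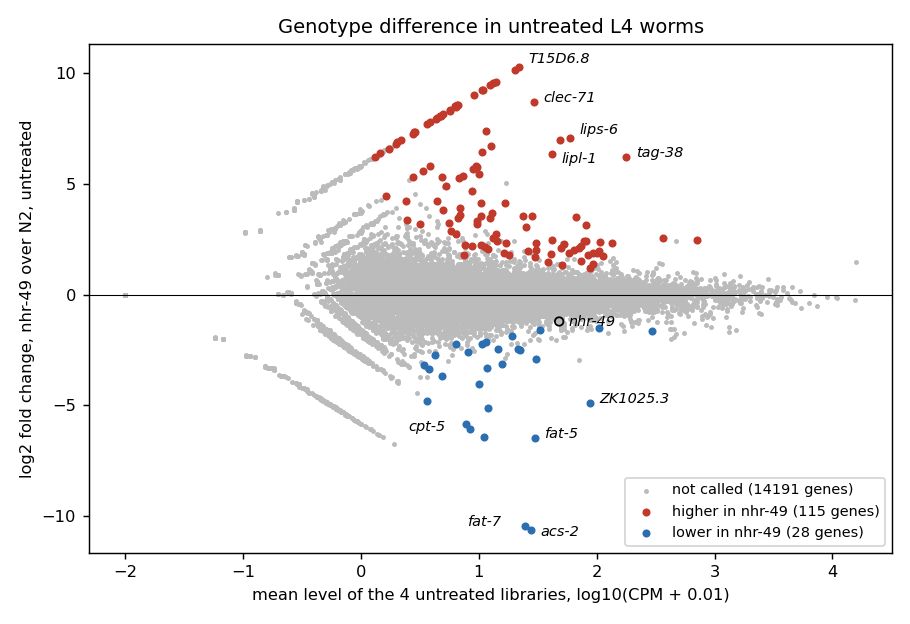
Log2 fold change of untreated *nhr-49* over untreated N2 (vertical axis) against the mean level of the 4 untreated libraries (horizontal axis, log10 of CPM plus 0.01). Each point is 1 of 14334 genes, red for the 115 called higher, blue for the 28 called lower and grey for the rest. The slanted lines at the left edges are genes with few or no counts in 1 genotype, *acs-2* and *fat-7* lie lowest, and the open circle is *nhr-49* itself.

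The libraries differed in depth and in developmental transcripts. Counts summed to 2157766 and 2634620 in the *nhr-49* libraries (replicates 1 and 3, the order used for all values below) and to 4758499 and 5468999 in the N2 libraries. A floor of 3 counts therefore stands for 1.55 and 1.12 CPM in *nhr-49* and for 0.690 and 0.575 CPM in N2. Ribosomal RNA took 3.17% and 1.12% of the counts in *nhr-49*, against 0.814% and 0.757% in N2. The 2 *nhr-49* libraries were less alike than the 2 N2 libraries, with 5166 genes more than 2-fold apart in *nhr-49* and 2139 in N2. Replicate 3 of *nhr-49* stood apart in transcripts that accumulate late in larval life. The 6 vitellogenins, the yolk proteins made by the adult intestine, summed to 60999 and 833 CPM in *nhr-49*, against 51484 and 23569 CPM in N2. Major sperm proteins and related sperm genes summed to 2306 and 365 CPM in *nhr-49*, against 2595 and 1695 CPM in N2. Oocyte and eggshell genes summed to 5469 and 829 CPM in *nhr-49*, against 4414 and 3462 CPM in N2. In each of these lists replicate 3 of *nhr-49* was lowest and replicate 1 lay near or above the N2 libraries. No tested gene of the yolk, sperm, oocyte and germline lists was called. Leaving out replicate 3 of *nhr-49* gave 21 lower and 88 higher genes, of which 14 and 77 were among those above. Leaving out replicate 1 of *nhr-49*, so that replicate 3 stood alone, gave 401 lower and 267 higher genes. Without N2 replicate 1 there were 14 lower and 27 higher genes, and without N2 replicate 3 there were 10 and 22. Of the 53 called genes that are named by rule below, 17 lost their call without replicate 3 of *nhr-49*, 5 without replicate 1 of *nhr-49*, 29 without N2 replicate 1 and 32 without N2 replicate 3, and 20 kept it in all 4 cases. The part of stage in the genes described here was not tested.

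**Figure D2:**
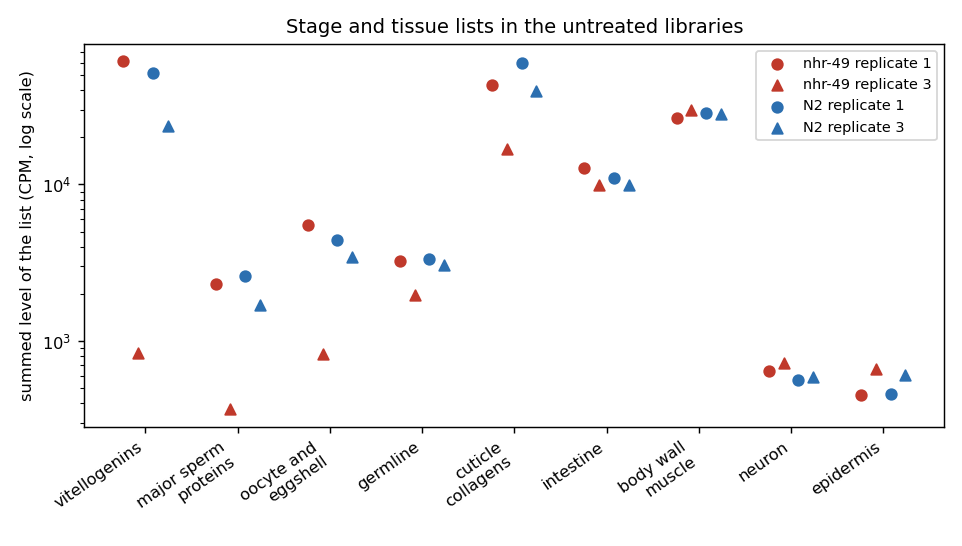
Summed level of stage and tissue gene lists (CPM, log scale) in each untreated library, with *nhr-49* (red) left of N2 (blue), circles for replicate 1 and triangles for replicate 3. Replicate 3 of *nhr-49* is lowest for vitellogenins (833 CPM), sperm proteins (365 CPM), oocyte genes (829 CPM), germline genes and collagens, while the intestine, muscle, neuron and epidermis lists lie close together in all 4 libraries.

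The marker lists of the main tissues had counts in all 4 libraries. Single markers did not always, as *rdy-2* of the epidermis list had no count in *nhr-49*, against 4 and 5 counts in N2. Intestine markers summed to 12642 and 9909 CPM in *nhr-49*, against 10923 and 9859 CPM in N2, and body wall muscle markers to 26552 and 29730 CPM, against 28683 and 28225 CPM. None of the 13 intestine, 12 muscle, 12 neuron or 12 epidermis markers tested was called. Within the epidermis list *phat-4* had 55.9 and 33.1 CPM in *nhr-49*, against 145 and 103 CPM in N2. It did not pass the exact test (adjusted p = 0.132), and the median log2 fold change over the 12 was 0.06. In RNA from whole worms, fewer cells of a type and less RNA per cell cannot be told apart.

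Reads remained on *nhr-49* (WBGene00003639, chromosome I) in the mutant. It had 41 and 97 counts in *nhr-49*, against 298 and 345 counts in N2, or 21.2 and 36.1 CPM against 68.5 and 66.1 CPM. Both mutant libraries were below both N2 libraries, with a log2 fold change of -1.22 (SE 0.38 by DESeq2, the source of every SE given here) that did not pass the test (adjusted p = 0.118). In the tBOOH libraries, which share no library with the untreated ones, it had 32.7 and 27.7 CPM in *nhr-49*, against 110 and 108 CPM in N2, and was called lower (adjusted p = 0.000245). None of the genes for proteins that work with NHR-49 was called. *mdt-15* had 181 and 185 CPM in *nhr-49*, against 184 and 186 CPM in N2. The partner receptor *nhr-80* had 26.9 and 33.5 CPM in *nhr-49*, against 16.8 and 14.4 CPM in N2, a log2 difference of 0.96 (SE 0.49, adjusted p = 0.634). *nhr-66*, another partner, differed by 0.30 on the log2 scale (SE 0.33) and *nhr-13* by 0.53 (SE 0.61). The whole list of 15, the receptor, its partners and linked stress regulators, held no called gene and had a median of 0.22.

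The lower genes included the enzymes of fatty acid activation and desaturation for which NHR-49 is best known. *acs-2* (WBGene00009221, chromosome V) encodes an acyl-CoA synthetase that activates fatty acids for mitochondrial beta-oxidation. It had no count in either *nhr-49* library, against 316 and 200 counts in N2 (72.7 and 38.3 CPM). Its level was at least 41.6-fold lower in *nhr-49* (fitted log2 fold change -10.62, SE 1.54, adjusted p = 1.1e-14). *cpt-5*, a carnitine palmitoyltransferase of the family that passes activated fatty acids into mitochondria, had 0 and 1 count in *nhr-49*, against 44 and 120 counts in N2. That is a level 79.2-fold lower in *nhr-49* (95% exact interval 14 to 3146, which like all such intervals here covers counting error only, adjusted p = 1.2e-06), although the N2 libraries themselves were 10.1 and 23 CPM. Both genes were thus at the limit of detection in the mutant and readily counted in wild-type worms.

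The desaturases showed the same picture for some members of the family. FAT-5, FAT-6 and FAT-7 place the first double bond in palmitic acid (FAT-5) or stearic acid (FAT-6 and FAT-7). *fat-7* (WBGene00001399, chromosome V) had no count in either *nhr-49* library, against 218 and 257 counts in N2 (50.1 and 49.2 CPM), at least 37.2-fold lower (SE 1.5, adjusted p = 8.9e-21). *fat-5* had 0 and 3 counts in *nhr-49*, against 228 and 344 counts in N2, 92.1-fold lower (95% exact interval 31.3 to 448, adjusted p = 3.8e-16). *fat-5* overlaps *twk-42* in the annotation, and because the use of strand in counting is not stated, reads of the 2 genes cannot be told apart. *fat-6*, whose product acts on the same substrate as FAT-7, had 67.3 and 118 CPM in *nhr-49*, against 183 and 280 CPM in N2. Its groups did not overlap, but the difference of -1.32 (SE 0.43) did not pass the test (adjusted p = 0.175). In the tBOOH libraries *fat-6* had 42.0 and 33.9 CPM in *nhr-49*, against 151 and 236 CPM in N2, and was called lower (adjusted p = 7.8e-05). The desaturases that make polyunsaturated fatty acids, *fat-1* to *fat-4*, were not called. Among the 5 desaturases without a call the log2 fold changes ran between -1.32 and 0.76.

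The wider lipid pathways held few other called genes. In the list of fatty acid activation and beta-oxidation 2 of 58 genes tested were lower and 2 higher, with a median log2 fold change of -0.09. Of the 21 acyl-CoA synthetases tested *acs-2* alone was called, and the other 20 ran between -0.96 and 1.02. None of 13 acyl-CoA dehydrogenases was called. The 2 higher genes were *cpt-4*, another carnitine palmitoyltransferase, and *ech-9*, of the enoyl-CoA hydratase family. *cpt-4* had 127 and 140 CPM in *nhr-49*, against 44.9 and 56.9 CPM in N2 (log2 fold change 1.39, SE 0.38, adjusted p = 0.0482). *ech-9* had 7.77 and 30.9 CPM in *nhr-49*, against 0.920 and 2.30 CPM in N2 (3.55, SE 0.77, adjusted p = 0.00226). Neither was called without replicate 3 of *nhr-49* (*cpt-4* 1.32, adjusted p = 0.291, *ech-9* 2.22, adjusted p = 0.284) or with either of the N2 libraries left out. The list of fatty acid synthesis, desaturation and elongation had 2 lower and 0 higher of 21 genes, *fat-5* and *fat-7*, and a median of -0.11. None of 9 elongases, 9 lipid-binding proteins or 21 genes of sphingolipid metabolism was called in untreated worms. *lbp-8*, a lipid chaperone of lysosomes, had 2.59 and 5.21 CPM in *nhr-49*, against 16.1 and 12.6 CPM in N2, and did not pass the test (adjusted p = 0.243).

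Genes for 3 lipases were higher, and none of the lipase families was called lower. *lips-6*, of a family of lipase-related genes, had 273 and 251 counts in *nhr-49*, against 5 and 3 counts in N2 (141 and 93.4 CPM against 1.15 and 0.575 CPM). Its log2 fold change of 7.06 (SE 0.69) passed the exact test (adjusted p = 6.9e-21) and the quasi-likelihood test (adjusted p = 0.0053). *lipl-1*, a lysosomal-type lipase known to rise on fasting, had 78.2 and 85.9 CPM in *nhr-49*, against 1.38 and 0.575 CPM in N2 (6.36, SE 1.51, adjusted p = 0.00104). *fil-1*, also named for its induction by fasting, had 9.32 and 13 CPM in *nhr-49*, against 1.15 and 2.11 CPM in N2 (2.74, SE 0.65, adjusted p = 0.00105). All 3 had 11 counts or fewer in each N2 library. *lipl-1* lost its call without N2 replicate 1 (7.07, adjusted p = 0.266) or N2 replicate 3 (5.85, adjusted p = 0.481), and *fil-1* without either of these or replicate 3 of *nhr-49* (2.47, adjusted p = 0.0750). The other 6 tested members of the *lipl* family were not called and ran between -2.64 and 1.06, and the other 8 of the *lips* family between -0.87 and 0.45.

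**Figure D3:**
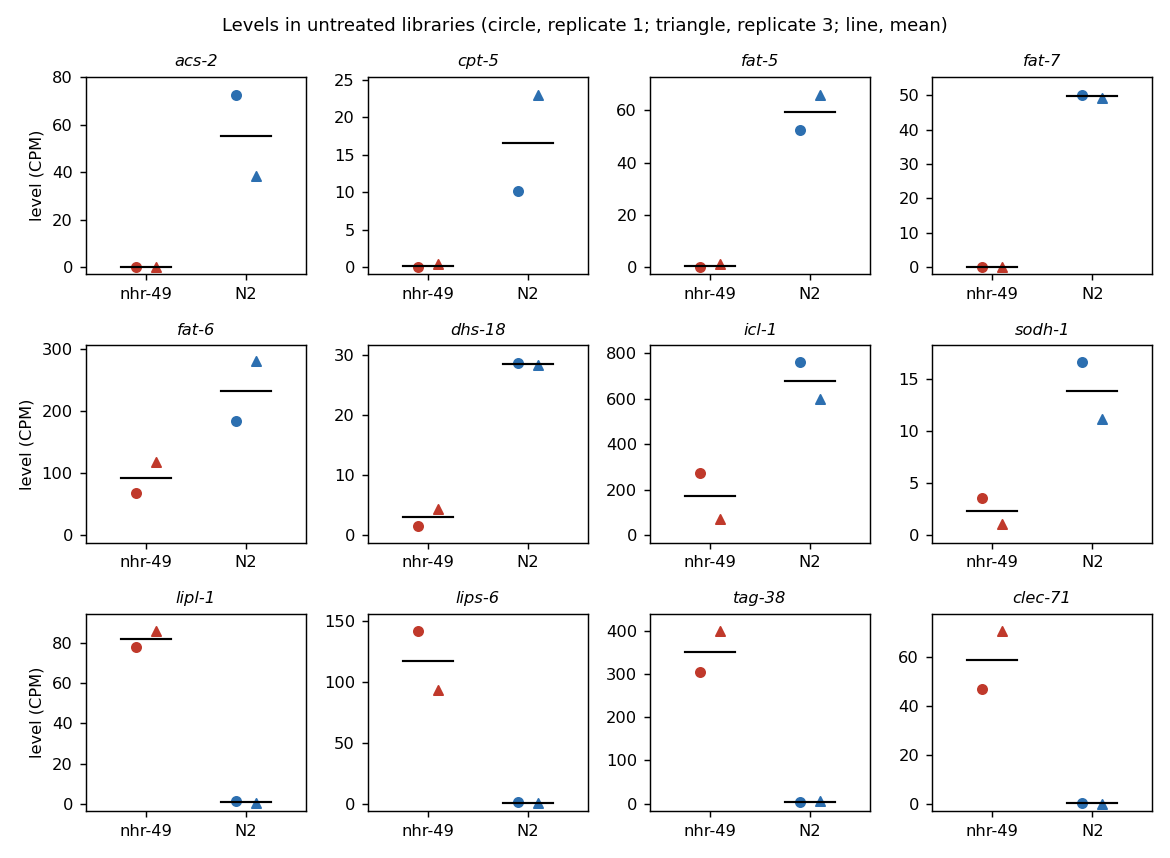
Level in CPM (vertical axis, starting near 0) of 12 genes in the untreated libraries, with *nhr-49* (red) left of N2 (blue), circles for replicate 1, triangles for replicate 3 and lines for means. *acs-2*, *cpt-5*, *fat-5* and *fat-7* lie at or near 0 in both *nhr-49* libraries, *fat-6* and *icl-1* are lower without passing the test, and *lipl-1*, *lips-6*, *tag-38* and *clec-71* are near 0 in N2.

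Of 12 tested genes that the study or earlier work ties to NHR-49, 5 were lower and 0 higher, with a median of -2.31. With *acs-2*, *fat-7* and *fmo-2* at their bounds the median was -2.0. The bound of *fmo-2* lay below 1-fold (0.905), so this gene was set to no change. Because the study chose part of this list on these samples, its direction is not independent evidence. The 5 were *acs-2*, *cpt-5*, *fat-5*, *fat-7* and *sodh-1*. *sodh-1*, an alcohol dehydrogenase, had 7 and 3 counts in *nhr-49*, against 72 and 58 counts in N2 (log2 fold change -2.61, SE 0.64, adjusted p = 0.00386). It was not called without replicate 3 of *nhr-49* (-1.92, adjusted p = 0.439) or without N2 replicate 1 (-2.29, adjusted p = 0.325). *icl-1*, the bifunctional enzyme of the glyoxylate shunt that lets worms build carbohydrate from fat, had 272 and 70.3 CPM in *nhr-49*, against 760 and 597 CPM in N2. Its groups did not overlap, but the 2 mutant libraries were far apart and the difference of -1.99 (SE 0.52) missed the threshold (adjusted p = 0.0801). *ech-1*, of beta-oxidation, had 1.55 and 4.46 CPM in *nhr-49*, against 9.20 and 11.1 CPM in N2 (adjusted p = 0.289). *K05B2.4* had 1.04 and 1.49 CPM in *nhr-49*, against 3.45 and 3.45 CPM in N2 (-1.39, adjusted p = 0.796). *fmo-2*, a flavin monooxygenase, had no count in *nhr-49* and 8 and 3 counts in N2 (unadjusted p = 0.0161, adjusted p = 0.414), and *nlp-25*, a neuropeptide-like gene, had no count in *nhr-49* and 1 and 0 counts in N2. Both had few counts in the untreated libraries.

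Single detoxification genes were called lower and others higher, also within 1 family. *dhs-18*, a short-chain dehydrogenase, had 1.55 and 4.46 CPM in *nhr-49*, against 28.8 and 28.4 CPM in N2 (log2 fold change -3.16, SE 0.59, adjusted p = 2.2e-06), and overlaps *C45B11.6*. *gst-4*, a glutathione S-transferase often used to report oxidative stress, had 3.11 and 9.67 CPM in *nhr-49*, against 30.6 and 42.0 CPM in N2 (-2.46, SE 0.58, adjusted p = 0.00853). *gst-4* overlaps *dhs-12* in the annotation. *gst-38*, of the same family, moved the other way, with 10.4 and 12.6 CPM in *nhr-49* against 2.99 and 3.64 CPM in N2 (1.79, SE 0.50, adjusted p = 0.0310). Over the whole list 1 of 41 glutathione S-transferases tested was lower and 1 higher. *gst-4* lost its call without replicate 1 of *nhr-49* (-1.91, adjusted p = 0.0902) and *gst-38* without replicate 3 of *nhr-49* (1.63, adjusted p = 0.459), and neither was called with either of the N2 libraries left out.

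The UDP-glucuronosyltransferases, which couple sugars to small molecules, also split, with 1 lower and 2 higher (3.45%) of 58. Of all genes tested 0.195% were lower and 0.802% higher. *ugt-6* had 6.22 and 2.98 CPM in *nhr-49*, against 28.3 and 21.1 CPM in N2 (-2.45, SE 0.64, adjusted p = 0.0166). *ugt-18* had 33 and 44 counts in *nhr-49*, against 3 and 3 counts in N2, 26.6-fold higher (95% exact interval 11.7 to 74.7, adjusted p = 5.2e-11, and 0.0079 by the quasi-likelihood test). *ugt-10* had 28 and 62 counts in *nhr-49*, against 0 and 3 counts in N2, 62.1-fold higher (95% exact interval 20.6 to 307, adjusted p = 9.1e-07). Members of such families resemble each other, and how reads shared between near-identical genes were counted is not stated. Among 66 cytochrome P450 genes *cyp-13A4* and *cyp-34A9* were higher, by 1.98 (SE 0.50) and 2.23 (SE 0.53) on the log2 scale. Without replicate 3 of *nhr-49*, *ugt-6* (-1.98, adjusted p = 0.493) and *cyp-13A4* (1.87, adjusted p = 0.0629) were not called, and neither they nor *cyp-34A9* were called with either of the N2 libraries left out. No member of the heat shock list (43 tested), the list of superoxide, peroxide and metal defence (23), the proteasome (32) or the cytosolic ribosome (78) was called.

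*dod-17* and *dod-24*, nearby genes on chromosome IV known to respond to insulin signalling and to pathogens, were both lower. *dod-24* had 4.66 and 8.56 CPM in *nhr-49*, against 33.6 and 42.9 CPM in N2 (-2.50, SE 0.51, adjusted p = 0.000182). *dod-17* had 8.29 and 8.18 CPM in *nhr-49*, against 26 and 34.3 CPM in N2 (-1.87, SE 0.43, adjusted p = 0.00254). *dod-17* was not called without replicate 3 of *nhr-49* (-1.86, adjusted p = 0.0789), nor was either gene without N2 replicate 3 (*dod-24* -2.31, adjusted p = 0.0626, *dod-17* -1.65, adjusted p = 0.375). They were the called members of a list of 14 tested pathogen-response, *dod* and thaumatin genes. *nhr-114*, the single nuclear receptor gene called lower, had 40.4 and 67.3 CPM in *nhr-49*, against 139 and 171 CPM in N2 (-1.52, adjusted p = 0.0171). It and the acid phosphatase gene *pho-11* (-1.63, adjusted p = 0.0128) were singled out after their values were seen.

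Other lower genes encode secreted or surface proteins, or have no gene name. *col-176*, a cuticle collagen on the X chromosome, had 1 and 0 counts in *nhr-49*, against 80 and 133 counts in N2, 103-fold lower (95% exact interval 18.3 to 4081, adjusted p = 7.0e-09). Collagen transcripts as a list summed to 42924 and 16935 CPM in *nhr-49*, against 59444 and 39480 CPM in N2, and 1 of 144 was lower and 1, *dpy-17*, higher. *dpy-17* lost its call without replicate 1 of *nhr-49* (1.58, adjusted p = 0.315) and with either of the N2 libraries left out. *bah-1*, needed for bacterial biofilms to attach to the cuticle, had 1 and 2 counts in *nhr-49*, against 62 and 169 counts in N2, 37.2-fold lower (95% exact interval 12.6 to 182, adjusted p = 9.0e-05). *nas-20*, an astacin-type metalloprotease, had 3 and 2 counts in *nhr-49*, against 88 and 90 counts in N2, 17.2-fold lower (95% exact interval 7.23 to 53.6, adjusted p = 0.00853). *ZK1025.3*, without a named function, had 4.14 and 7.07 CPM in *nhr-49*, against 118 and 219 CPM in N2 (-4.89, SE 0.68, adjusted p = 3.3e-07). The lectin gene *clec-47* fell by 3.34 on the log2 scale (SE 0.74, adjusted p = 9.0e-05). *Y34F4.2*, *F32B6.10* and *T22C1.9* had 3 counts or fewer in each *nhr-49* library and were 13.7-fold (95% exact interval 4.53 to 67.7), 10.8-fold (3.54 to 53.6) and 9.50-fold (3.10 to 47.4) lower. Without replicate 3 of *nhr-49* the calls of *nas-20* (-3.56, adjusted p = 0.369), *Y34F4.2* (-2.50, 0.418), *F32B6.10* (-3.66, 0.271) and *T22C1.9* (-3.50, 0.225) were lost, as they were with either of the N2 libraries left out, and *F32B6.10* and *T22C1.9* were not called without replicate 1 of *nhr-49* either (adjusted p = 0.0718 and 0.0635). Those of *bah-1* (-4.38, adjusted p = 0.0776) and *clec-47* (-3.23, adjusted p = 0.0626) were lost without N2 replicate 3.

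Among the higher genes the lowest adjusted p belonged to *tag-38*, singled out after its values were seen. It had 587 and 1073 counts in *nhr-49*, against 18 and 27 counts in N2, or 304 and 399 CPM against 4.14 and 5.17 CPM (log2 fold change 6.22, SE 0.41, adjusted p = 1.0e-33). Its quasi-likelihood adjusted p was 0.00060.

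C-type lectins, a large family of secreted proteins with sugar-binding domains, had 12 higher and 2 lower of 120 genes tested. The median over the 120 was 0.30, and for 41 of them the groups did not overlap in the higher direction, beside the 18.3% of all genes given above. *clec-71* had 90 and 189 counts in *nhr-49*, against 1 and 0 counts in N2, 578-fold higher (95% exact interval 103 to 22900, adjusted p = 7.2e-19). *clec-9* had 70 and 52 counts in *nhr-49* and none in N2, at least 44.0-fold higher (adjusted p = 1.9e-13). *clec-58* had 27 and 76 counts in *nhr-49* and none in N2, at least 33.4-fold higher (adjusted p = 1.0e-09). *clec-4* was measurable in both genotypes, at 50.2 and 53.9 CPM in *nhr-49* against 4.83 and 4.02 CPM in N2 (3.55, SE 0.49, adjusted p = 3.5e-10). The fitted log2 fold changes of the 12 ran between 1.79 and 9.62, and 4 of them had 3 counts or fewer in both N2 libraries. Of the 12, only *clec-71*, *clec-9*, *clec-58* and *clec-4* kept their call under all 14 alternatives listed in the closing sections. The call of *clec-67* was lost without replicate 3 of *nhr-49*, and those of *clec-52* and *clec-230* without replicate 1. The lysozyme genes *lys-3* and *ilys-2* were also higher, at low counts. *lys-3* had 5 and 24 counts in *nhr-49*, against 2 and 4 counts in N2 (adjusted p = 0.0297), and *ilys-2* had 10 and 3 counts in *nhr-49*, against 0 and 1 count in N2 (adjusted p = 0.0430). Neither was called with either of the N2 libraries left out, *lys-3* was not called without replicate 3 of *nhr-49* (2.0, adjusted p = 1), and *ilys-2* was not called without replicate 1 of *nhr-49* (3.09, adjusted p = 0.463). No antimicrobial peptide gene of 35 tested was called.

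The *oac* genes, which encode putative membrane O-acyltransferases, had 10 higher and 0 lower of 42 tested. The share called higher was 23.8%, against 0.802% of all genes tested. This family was picked out after the values were seen. Its median log2 fold change was 1.53, and the 32 members without a call ran between -4.24 and 6.6. *oac-6* had 31.6 and 25.3 CPM in *nhr-49*, against 4.83 and 6.32 CPM in N2 (2.33, SE 0.47, adjusted p = 0.000182). *oac-45* had 19 and 21 counts in *nhr-49* and none in N2, at least 14-fold higher (adjusted p = 9.0e-05). *oac-51* had 26 and 70 counts in *nhr-49*, against 3 and 1 counts in N2, 49.7-fold higher (95% exact interval 18.8 to 186, adjusted p = 1.6e-05). In 6 of the 10 both N2 libraries had 3 counts or fewer. None of the 10 was called by the quasi-likelihood test. With the replicate number as a block in that test, *oac-6*, *oac-51* and *oac-56* were called. The calls of *oac-31* and *oac-43* were lost without replicate 3 of *nhr-49*, and those of *oac-27* and *oac-43* without replicate 1. No *oac* gene kept its call under all 14 alternatives listed in the closing sections.

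Nuclear hormone receptor genes had 7 higher (3.65%) and 1 lower of 192 tested, with a median of 0.40. Of all genes tested 0.802% were higher and 0.195% lower. *nhr-82* had 11.9 and 37.6 CPM in *nhr-49* and no count in N2, at least 39.1-fold higher (adjusted p = 0.000332). *nhr-269* had 9 and 59 counts in *nhr-49* and none in N2, at least 21-fold higher (adjusted p = 0.000113). *nhr-81* had 10 and 54 counts in *nhr-49* and none in N2 (adjusted p = 0.000978). For these 3 receptors replicate 3 of *nhr-49* was several-fold above replicate 1. *nhr-181* was more even, with 9.84 and 10.4 CPM in *nhr-49* against 0.920 and 1.15 CPM in N2 (3.24, SE 0.81, adjusted p = 0.00205). *nhr-81* was not called without replicate 3 of *nhr-49* (7.32, adjusted p = 0.0638), and none of the 4 was called with either of the N2 libraries left out (adjusted p between 0.175 and 0.482).

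Histone genes had 4 higher (12.5%, against 0.802% of all genes tested) and 0 lower of 32 tested. *his-5* had 74.1 and 132 CPM in *nhr-49*, against 25.1 and 26.6 CPM in N2 (1.99, SE 0.41, adjusted p = 0.000375). *his-18* had 76.7 and 151 CPM in *nhr-49*, against 20.7 and 32.8 CPM in N2 (2.09, SE 0.45, adjusted p = 0.00104). *his-7* and *his-32* were higher by 2.57 (SE 0.64) and 2.04 (SE 0.58). Histone genes occur in many near-identical copies, so values of single members are uncertain. The hedgehog-related *wrt-8* was higher, with 200 and 91.5 CPM in *nhr-49* against 20.7 and 12.3 CPM in N2 (3.14, SE 0.56, adjusted p = 0.000262). The patched-related *ptr-22* was higher as well (3.30, SE 0.71, adjusted p = 0.00115), and these were the called members of 63 genes of both families. *fbxa-88* was the single gene called among 192 F-box and MATH genes, with 9 and 23 counts in *nhr-49* against 0 and 1 count in N2. Without replicate 3 of *nhr-49*, *his-18* (1.51, adjusted p = 0.0567), *his-32* (1.83, adjusted p = 0.325) and *fbxa-88* (5.12, adjusted p = 0.117) were not called, and with either of the N2 libraries left out none of the 4 histone genes, *wrt-8*, *ptr-22* and *fbxa-88* was called.

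For 31 of the 115 higher genes no read was counted in either N2 library, while the *nhr-49* libraries had between 4 and 121 counts. *T15D6.8* had 121 and 66 counts in *nhr-49* and was at least 69.0-fold higher (adjusted p = 1.5e-09). *ZK218.5* had 79 and 106 counts in *nhr-49* and was at least 63.5-fold higher (adjusted p = 2.5e-16). *glct-3*, a glucuronyltransferase-like gene, had 62 and 56 counts in *nhr-49* and was at least 41.9-fold higher (adjusted p = 8.7e-10). *E03H4.4*, *B0348.2* and *C14C6.6* were at least 34-fold, 28.5-fold and 17.9-fold higher, and *ZK218.3*, with 55 and 47 counts in *nhr-49* against 0 and 1 count in N2, was 211-fold higher (95% exact interval 37.1 to 8425). *C14C6.6* lost its call without N2 replicate 1 (adjusted p = 0.102) or N2 replicate 3 (adjusted p = 0.118). In the N2 libraries with tBOOH, 21 of the 31 again had no count and 28 had 3 counts or fewer in both. In the *nhr-49* libraries with tBOOH, 29 of the 31 had more than 3 counts in both. Since the 31 genes were chosen on the untreated libraries, their counts there are fixed by that choice. Only the tBOOH libraries show separately that most of them were rarely counted in N2 and regularly counted in *nhr-49*.

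Part of the higher genes lie near each other, and whether more of them do so than other genes was not tested. By a rule chosen after the values were seen (at least 3 called genes, each no more than 5 places from the next in the order of protein-coding genes), 10 runs held 40 of the 127 called genes that have a place in the annotation. They hold 38 higher and 2 lower genes, and 24 of the 31 genes with no count in N2. On chromosome I, *glct-3*, *T15D6.8*, *T15D6.11*, *T15D6.12* and *E03H4.4* formed a run whose tested genes had a median log2 fold change of 6.78. On the same chromosome *oac-16*, *nhr-82*, *nhr-265* and *oac-27* formed another (median 6.81), and *T09E11.9*, *T09E11.8*, *oac-45* and *oac-43* the third (7.35). On chromosome V the runs included *ZK218.3*, *ZK218.5*, *ZK218.7* and *ZK218.11* (median 7.92) and *nhr-155*, *C14C6.3*, *C14C6.6* and *C14C6.8* (median 7.94). On chromosome II *C17A2.7*, *C17A2.2* and *oac-11* were together (median 6.81), and on chromosome IV 4 lectin genes, *clec-67*, *clec-71*, *clec-174* and *clec-72* (median 2.37). In the remaining chromosome IV run *F55G11.6* and *F55G11.7* were higher and lay between *dod-24* and *dod-17*, which were lower. The runs also span 19 tested genes without a call, of which 11 had a log2 fold change above 1.

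**Figure D4:**
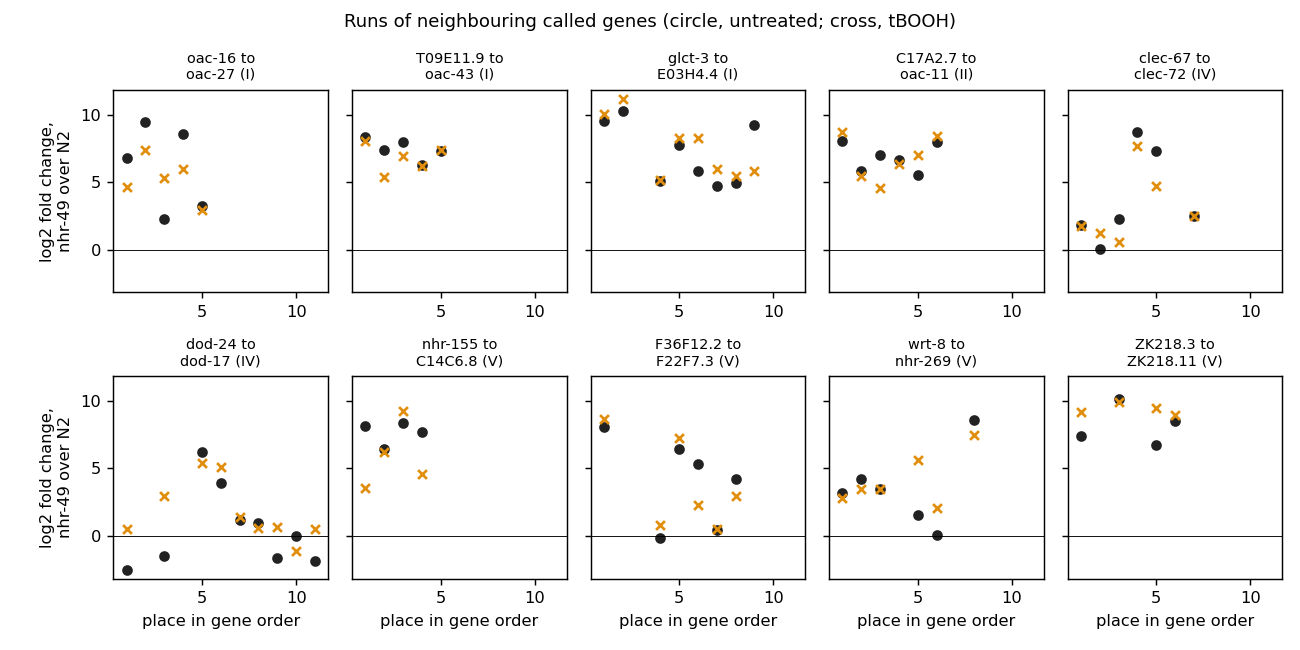
Log2 fold change of *nhr-49* over N2 (vertical axis) for the tested genes in 10 runs of neighbouring called genes, by place in gene order (horizontal axis), with the chromosome in parentheses. Black circles are untreated and orange crosses tBOOH libraries. Nearly all genes of the first 4 panels lie well above 0 in both sets of libraries, and the run of *dod-24* to *dod-17* is mixed.

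The share of tested genes called higher was 1.85% on chromosome V (47 of 2544), 1.02% on IV (22 of 2156) and 0.959% on I (20 of 2086), the chromosome that carries *nhr-49*. It was 0.508% on II, 0.154% on III and 0.0562% on X, where 1 of 1778 genes was higher. Of the lower genes 11 lie on V, 4 on IV, 3 each on I, II and X, and 1 on III. These counts cover only the 25 lower and 104 higher genes whose symbol was found in the annotation. The chromosomal distribution was not tested.

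The same genotype difference can be read again in the tBOOH libraries, which share no library with the untreated ones, although all 8 entered 1 estimate of the spread. With tBOOH the exact test called 73 genes lower (0.509%) and 256 higher (1.79%) in *nhr-49*. Of the 28 genes lower in untreated worms 13 were also called lower there (46.4%), and of the 115 higher genes 86 were also called higher (74.8%). None was called in the opposite direction. The sign was the same for 26 of the 28 and 111 of the 115. With tBOOH the lower genes had a median log2 fold change of -1.98 and the higher ones of 2.85.

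Replicate 3 of *nhr-49* stood apart in the stage lists with tBOOH as well. Vitellogenins summed to 67482 and 3560 CPM in *nhr-49* with tBOOH, against 85700 and 40580 CPM in N2 with tBOOH. Oocyte genes summed to 8085 and 1016 CPM in *nhr-49* with tBOOH, against 7087 and 5133 CPM in N2 with tBOOH, and sperm genes to 1870 and 901 CPM, against 1920 and 1852 CPM. In alternatives added after the data were seen, leaving out this tBOOH library left 12 of the 28 lower and 62 of the 115 higher genes called with tBOOH. Leaving out replicate 3 of *nhr-49* in both treatments, with the spread re-estimated, gave 62 lower and 134 higher genes in untreated worms, of which 26 and 80 were also called with tBOOH. The part of stage in the genes shared between treatments was not tested.

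The lipid genes at or near 0 in untreated mutants were near 0 with tBOOH as well. *acs-2* had 2 and 5 counts in *nhr-49* with tBOOH, against 679 and 327 counts in N2 with tBOOH (adjusted p = 8.4e-17). *fat-7* had 1 and 0 counts in *nhr-49* with tBOOH, against 250 and 208 counts in N2 with tBOOH (adjusted p = 6.8e-24). *fat-5*, *cpt-5*, *dhs-18* and *sodh-1* were called lower there too (adjusted p = 5.6e-19, 1.5e-07, 3.0e-13 and 4.2e-09). All 12 higher lectin genes, 9 of the 10 *oac* genes and 5 of the 7 receptor genes were called higher with tBOOH. None of the 4 histone genes was.

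Some genes called in untreated worms were not called with tBOOH. *gst-4* had 112 and 273 CPM in *nhr-49* with tBOOH, against 267 and 311 CPM in N2 with tBOOH (adjusted p = 0.867). *dod-24* had 64.9 and 85.3 CPM in *nhr-49* with tBOOH, against 38.6 and 66.1 CPM in N2 with tBOOH, so that the groups overlapped. *lipl-1* had 43.4 and 15.8 CPM in *nhr-49* with tBOOH, against 8.46 and 0.189 CPM in N2 with tBOOH, groups that did not overlap (log2 fold change 2.76, adjusted p = 0.289). Whether the genotype difference itself changed with tBOOH was tested as an interaction by the quasi-likelihood test. No gene passed after adjustment (lowest adjusted p = 0.185), and 523 genes had an unadjusted p under 0.05, among them 7 of the 28 lower and 20 of the 115 higher genes. Calls in 1 treatment and not in the other are therefore not shown to differ.

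**Figure D5:**
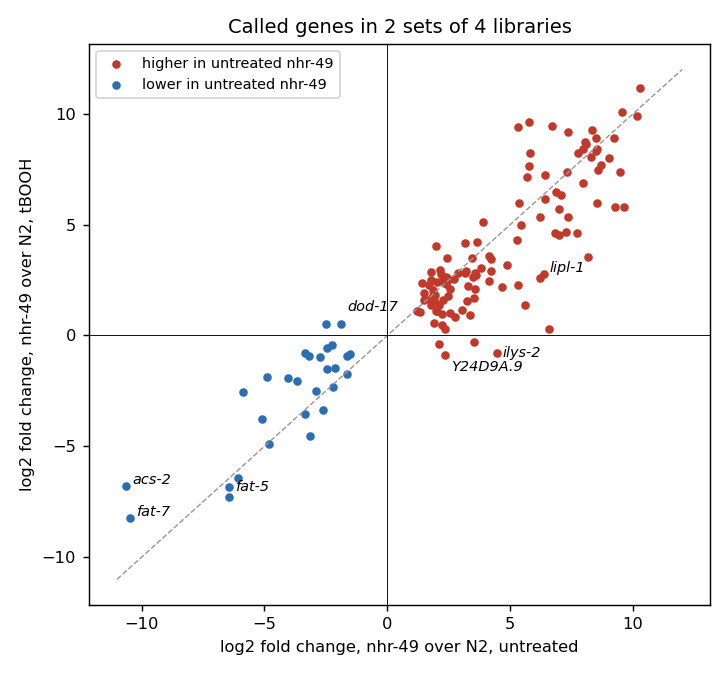
Log2 fold change of *nhr-49* over N2 with tBOOH (vertical axis) against that in untreated worms (horizontal axis) for the 115 genes called higher (red) and the 28 called lower (blue) in untreated worms. The 2 axes come from separate sets of 4 libraries, the dashed line marks equal values, and 26 of the 28 blue and 111 of the 115 red points keep their sign.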

How the data were processed

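RNA from whole L4 worms was depleted of ribosomal RNA and converted to cDNA libraries with a low-input SMARTer kit, and 76 bp reads were sequenced on a NextSeq 500. The authors aligned single-end reads to ce10 with STAR and deposited whole-number counts per gene symbol, and also signal values, which are those counts divided by library total and TMM factor (CPM), for genes above 1 CPM in 2 libraries. The counting program, annotation and use of strand are not given in the sources used here. Groups follow the labelled genotype and treatment.

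The counts were tested with edgeR 4.0.16 in R 4.3.3. TMM factors, the filter and 1 tagwise dispersion per gene came from all 8 libraries, and the 14334 genes kept were the same as in the deposited CPM table, with values within 4.5e-06. The common dispersion was 0.131 (biological coefficient of variation 36.2%). Over the untreated and tBOOH libraries of 1 genotype, it was 0.215 in *nhr-49* and 0.0528 in N2. Untreated genotypes were compared with the exact test, as in the study, and genes were called at a Benjamini-Hochberg adjusted p under 0.05. Standard errors came from DESeq2 1.42.0. The 12682 kept symbols found in WBcel235 took their identifier, chromosome and neighbours from it, without coordinates, since the build differs. Against a group with no count, folds were computed against 3 counts per library, averaged over the group, and are lower bounds. With up to 3 counts per library, the ratio of summed counts over summed library sizes is given with an exact 95% interval (Clopper-Pearson). Both cover counting error only. The methods were tested on simulated data.

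Named genes are *nhr-49*, its partners and the genes tied to it, the 12 largest called changes in each direction among genes whose higher group has 20 counts or more per library, and up to 4 called genes (or 2 with the lowest p) per list. Genes named outside this rule, given in the accounts of families and runs, were chosen after their values were seen. The members and lists were chosen with earlier results of these data known. Alternatives were the quasi-likelihood and likelihood ratio tests, DESeq2, RLE normalization, other filters, thinning of all libraries to 1 total, a replicate block, dispersions estimated on the untreated libraries alone, omission of each library and a prior count of 2. Promoter motifs were not analysed here.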

Additional observations from a re-analysis of the deposited data

Results flagged for a closer look

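For 3 of the 143 called genes both *nhr-49* libraries lay on one side of both N2 libraries without tBOOH and on the other side with it. The share of all genes tested that did so was not computed. Without tBOOH alone, the groups did not overlap for 20.7% of all genes tested in the lower and 18.3% in the higher direction. The interaction of the 3 genes was tested by the quasi-likelihood test of edgeR, and none passed after adjustment over all genes (the lowest adjusted p of any gene was 0.185). *dod-17* was lower in untreated *nhr-49* worms (log2 fold change -1.87), and with tBOOH it had 80.6 and 75.1 CPM in *nhr-49*, against 62.3 and 47.2 CPM in N2, a log2 difference of 0.51. *ilys-2* was higher in untreated *nhr-49* worms (4.45), and with tBOOH it had 3.74 and 3.54 CPM in *nhr-49*, against 7.11 and 5.30 CPM in N2, a log2 difference of -0.77. *Y24D9A.9*, which overlaps the ribosomal protein gene *rpl-7A*, was higher in untreated *nhr-49* worms (2.34), and with tBOOH it had 13.1 and 12.7 CPM in *nhr-49*, against 33.5 and 13.5 CPM in N2, a log2 difference of -0.87. None of the 3 differences with tBOOH passed the exact test (adjusted p = 0.773, 0.882 and 0.728).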

How the results depend on the processing

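The 28 lower and 115 higher genes became 4 and 16 by the quasi-likelihood test, and 11 and 46 by that test with the replicate number as a block. The likelihood ratio test called 59 lower genes, among them all 28, and 169 higher genes. Leaving out 1 library at a time gave between 10 and 401 lower and between 22 and 267 higher genes, where the lone library of a group was assumed to vary like the others. Replicate 3 of *nhr-49*, the library low in yolk and sperm transcripts, stood alone in the fit with 401 and 267. The 99 genes called the same way with tBOOH were 19 by the quasi-likelihood test. DESeq2 called 22 lower and 118 higher genes, 20 and 107 of them shared with the exact test, and RLE normalization, the other filters, dispersions from the 4 libraries, thinning and a prior count of 2 gave 22 to 32 lower and 85 to 116 higher genes. Under all 14 alternatives 4 lower genes (*acs-2*, *C30G12.2*, *fat-5* and *fat-7*) and 13 higher genes (including *tag-38*, *lips-6*, *clec-71*, *clec-9* and *ugt-18*) kept their call. No called gene among those named changed direction under any of these alternatives. Among the tests of named genes under the alternatives 1315 kept their side of the threshold, 173 lost a call and 15 gained one. The cause of these differences was not tested. Deviations of same-numbered untreated libraries correlated at 0.27 between genotypes, and those of *nhr-49* at 0.32 between treatments, but with 2 numbers and no label for what they mark the libraries share only a number. The depth of the *nhr-49* libraries, 2157766 and 2634620 counts, limits what can be said of genes under 1.55 CPM.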
